A study of Mus musculus with 10 samples.

Results

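The keratin genes were followed across sorted tuft cells of the mouse small intestine and thymus and the remaining epithelium of the small intestine. Members were all protein-coding genes whose symbol is Krt followed by digits only, read from GENCODE M21 (GRCm38) through the Ensembl identifiers of the counts. This gave 49 genes of 43432 identifiers, of which 42548 had an entry in that annotation. Symbols with a letter, such as Krt6a, are not members and are given as neighbours, and 1 gene with a matching symbol (Krt74) was left out because it is annotated as a pseudogene. Of the 49 members 47 had a count in at least 1 library, and Krt28 and Krt40 had none.

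Keratins build the intermediate filaments of epithelial cells, and a filament forms only where a type I (acidic) keratin pairs with a type II (basic) keratin. The pairs differ with the epithelium: Krt8 with Krt18, Krt19 or Krt20 in simple epithelia such as the gut, Krt5 with Krt14 in the basal layer of stratified epithelia, Krt1 with Krt10 in the layers above it, and separate sets in hair, nail and the sheaths of the hair root. The medulla of the thymus holds epithelial cells that carry basal keratins, cells that cornify like skin, and tuft cells, which are chemosensory cells also found in the gut and airways.

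All mice were naïve C57BL6.Il25(Flare25/Flare25) males of 12 weeks, and every library came from 1 mouse. Flare25 is a reporter allele of Il25, a cytokine gene that tuft cells express, and both alleles of Il25 carried it in the tuft and the reference groups alike. The groups were SI tuft (Tuft_SI, 3 libraries), thymic tuft (Tuft_Thy, 4 libraries), both from the gate DAPI-;CD45-;EPCAM+;Flare25+, and SI epithelium (Epi_SI, 3 libraries) from DAPI-;CD45-;EPCAM+;Flare25-. SI epithelium was sorted as 52000 to 57000 cells, SI tuft as 35000 to 36000 and thymic tuft as 1350 to 1900. Intestinal cells were released with dithiothreitol and EDTA, and thymic cells were digested with Liberase TM and enriched on Percoll, so organ, preparation and cell number cannot be told apart in a comparison of thymic with intestinal libraries. There was no thymic Flare25- group, so thymic tuft cells could not be set against other thymic epithelium. Per the design text, 1 SI tuft and 1 SI epithelium library failed quality control and were discarded by the authors.

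The 49 genes lie in the 2 keratin clusters, 25 at chr11:99232761-100269871 and 24 at chr15:101347444-102032027 (GRCm38). Type was taken from the cluster, type I on chromosome 11 and type II on chromosome 15, with Krt18 set as type I. By this rule the chromosome 15 cluster held 23 type II genes and 1 type I gene, Krt18 (chr15:102028180-102032027). Its neighbour Krt8 lies 23.7 kb away. Promoter sequence was read from RefSeq (GRCm38.p6), which gave 35 of the 49 genes, and 33 of these had a RefSeq start within 150 bases of the GENCODE start. The 4 sequences below are shown because their genes lead the patterns described: Krt18 in SI tuft, Krt20 in the intestine, and Krt5 and Krt10 in the thymus. They run 5′ to 3′ on the gene's strand and end before the annotated start. Capitals mark TATAAA, the only motif marked.
Krt18 (chr15:102027966-102028179, plus strand): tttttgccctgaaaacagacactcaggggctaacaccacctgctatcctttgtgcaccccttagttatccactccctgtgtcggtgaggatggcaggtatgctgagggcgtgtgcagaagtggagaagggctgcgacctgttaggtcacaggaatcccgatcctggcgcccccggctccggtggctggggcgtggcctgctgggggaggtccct
Krt20 (chr11:99438154-99438403, minus strand): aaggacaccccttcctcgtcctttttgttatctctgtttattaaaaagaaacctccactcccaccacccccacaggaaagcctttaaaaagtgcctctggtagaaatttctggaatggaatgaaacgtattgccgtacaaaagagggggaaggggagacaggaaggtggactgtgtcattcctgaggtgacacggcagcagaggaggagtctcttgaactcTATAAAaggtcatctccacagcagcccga
Krt5 (chr15:101712906-101713155, minus strand): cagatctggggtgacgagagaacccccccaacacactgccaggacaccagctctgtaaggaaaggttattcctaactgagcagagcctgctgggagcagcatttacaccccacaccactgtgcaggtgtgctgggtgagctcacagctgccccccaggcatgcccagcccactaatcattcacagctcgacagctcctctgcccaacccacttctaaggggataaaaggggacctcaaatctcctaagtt
Krt10 (chr11:99389365-99389614, minus strand): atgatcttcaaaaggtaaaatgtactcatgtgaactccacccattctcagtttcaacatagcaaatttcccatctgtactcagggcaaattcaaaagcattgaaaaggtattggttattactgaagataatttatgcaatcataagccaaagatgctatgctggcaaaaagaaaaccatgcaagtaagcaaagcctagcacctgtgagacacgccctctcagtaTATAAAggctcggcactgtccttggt
TATAAA, searched on both strands of the window, occurred in 16 of the 33 keratin promoters (48.5%) and in 4063 of 32851 promoters of the table (12.4%). It lay 29 bases before the start in Krt20 and 26 bases before it in Krt10. The octamer ATTTGCAT, the site of the tuft cell factor Pou2f3 and its relatives, was found in 0 of the 33 and in 526 of all (1.60%). GGGCGG, a GC box, occurred in 1 of the 33, Krt75, and in 32.7% of all promoters. These matches describe letters in a window and not binding.

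The libraries held 38659882 to 73574745 counts. Values below are TMM-scaled CPM (counts of a gene set to a common library size), and differences are log2 fold changes of the first group named over the second from edgeR's quasi-likelihood test, called at a Benjamini-Hochberg adjusted p below 0.05 over 19281 genes. Of the 49 keratins 38 passed the filter on low counts. Of these 13 reached the filter's cutoff of 0.198 CPM in no intestinal library and so entered through the thymic libraries. A further 3, Krt16, Krt42 and Krt84, reached it in fewer than 3 intestinal libraries, too few to pass without thymic libraries. For all of these, calls in thymic comparisons are a result of the filter as well. The 3 comparisons share groups and are given side by side only. All 12 listed tuft cell genes were higher in both tuft groups than in SI epithelium. Of all genes tested 10.9% were higher in SI tuft and 28.6% in thymic tuft than in SI epithelium. Sums of the 12 genes were 27268 to 37291 CPM in SI tuft, 5922 to 7075 in thymic tuft and 233 to 468 in SI epithelium. In bulk libraries fewer cells of a type and less RNA per cell cannot be told apart.

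Each SI epithelium library held a small share of the counts of 1 thymic library, measured over 274 genes that are no keratins. The shares were 0.444% of thymic library 3 in SI epithelium 1, 0.476% of thymic library 2 in SI epithelium 2 and 0.525% of thymic library 1 in SI epithelium 3. In the other direction, over 8 genes, thymic libraries 3, 2 and 1 held 0.917%, 0.956% and 0.876% of the same partners. Those 8 genes were chosen as low in SI tuft and nearly absent from thymic library 4, and only partner pairs were measured. Transcripts made by cells of thymic libraries 3, 2 and 1 themselves would be counted in this share. Thymic library 4 contributed 0.0359% or less to any SI epithelium library. No share was estimated for SI tuft libraries, nor for SI epithelium counts in thymic library 4. Results with the share subtracted are given with the partner comparison of the SI epithelium libraries.

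The simple keratins, which line single-layered epithelia, accounted for nearly all keratin counts in the intestine. Their 6 members summed to 99.3% to 99.6% of keratin CPM in SI epithelium, 99.7% in each SI tuft library and 47.4% to 56.5% in thymic tuft. Basal keratins made up 26.3% to 32.3% in thymic tuft, suprabasal and cornifying keratins 12.4% to 19.1%, and hair, nail and root sheath keratins 0.882% to 1.98%. Summed keratin CPM was 17172 to 18738 in SI tuft, 3860.5 to 4693 in SI epithelium and 3580.4 to 4387 in thymic tuft. SI tuft libraries lay above the libraries of the other groups, which overlapped each other. That overlap depends on the scaling. As a share of unscaled counts keratins made up 0.507% to 0.594% in thymic tuft and 0.341% to 0.421% in SI epithelium, without overlap. In SI tuft the unscaled share was 1.24% to 1.36%. An exact two-sided permutation test over libraries gave p = 0.1 for SI tuft against SI epithelium, the smallest that 3 against 3 allows, and p = 0.4 for thymic tuft against SI epithelium.

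**Figure D1:**
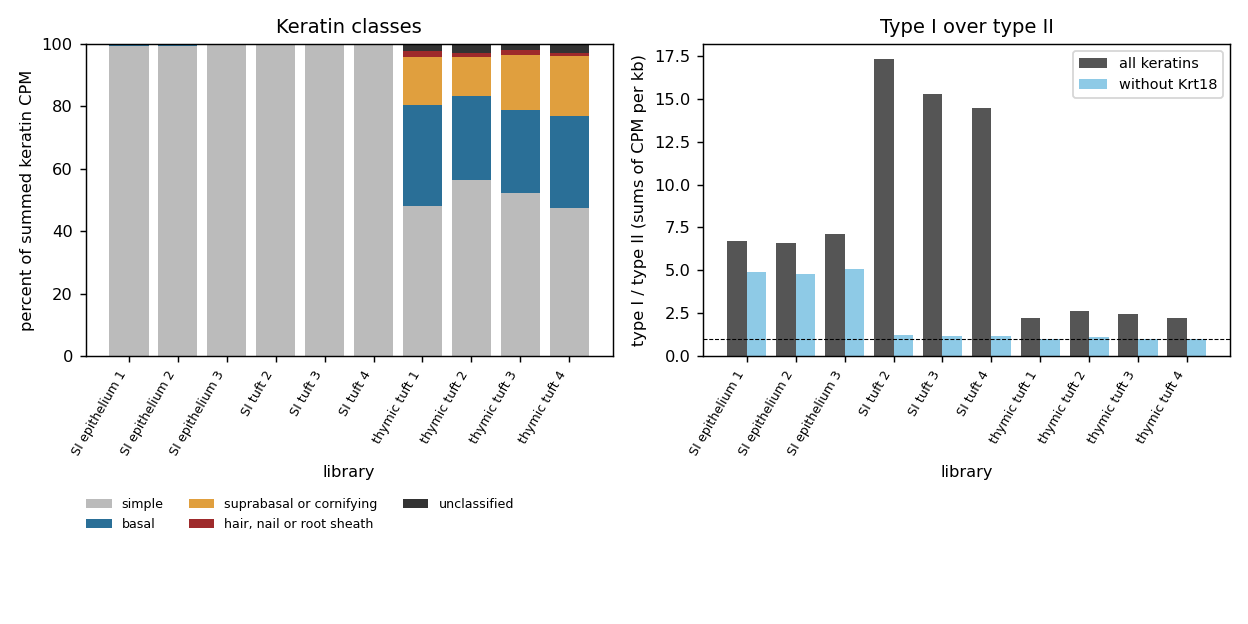
Left, share of summed keratin CPM in each keratin class for the 10 libraries; right, type I over type II keratin sums in CPM per kb, for all keratins (dark) and without Krt18 (light), with a dashed line at 1. Simple keratins hold 99.3% or more in the 6 intestinal libraries and 47.4% to 56.5% in the 4 thymic libraries.

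SI tuft libraries differed from SI epithelium libraries in which simple keratins they held. Krt18, Krt8 and Krt23 were higher in SI tuft and Krt19, Krt20 and Krt7 were lower. Over all keratins 4 of the 38 tested were higher and 15 lower, beside 10.9% and 11.4% of all genes tested (22.3% called in either direction), and the remaining higher member was Krt222. The libraries of the 2 groups did not overlap for 24 of the 38, beside 51.1% of all genes tested. The median difference of the 38 was -2.43 on the log2 scale, beside -0.10 over all genes tested. These 38 include the 13 that entered through the thymic libraries. For Krt5, Krt17, Krt14, Krt77 and others the SI epithelium counts matched the share of the partner thymic library. With that share subtracted fewer keratins were lower, and the 24 and the -2.43 were not recomputed.

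Krt18, the type I partner of Krt8, stood at 15974, 14374 and 14755 CPM in the SI tuft libraries and at 751, 856 and 987 CPM in SI epithelium. The thymic tuft libraries held 1059.9, 1479, 1499 and 1195 CPM. SI tuft lay far above both other groups, and each thymic library lay above each SI epithelium library. By the ratio of mean CPM, Krt18 was 17.4-fold higher in SI tuft than in SI epithelium (log2 4.12, SE 0.19, adjusted p = 2.05e-08). It was lower in thymic than in SI tuft (log2 -3.52, SE 0.16, adjusted p = 1.58e-08) and slightly higher in thymic tuft than in SI epithelium (log2 0.60, SE 0.16, adjusted p = 0.00765).

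Krt8, the type II keratin of simple epithelia, was also higher in SI tuft than in both other groups, by less. It stood at 1336, 1375 and 1496 CPM in SI tuft, at 471, 536 and 578 in SI epithelium and at 299, 521, 416 and 295 in thymic tuft. The thymic and SI epithelium libraries overlapped. The difference of SI tuft over SI epithelium was 1.41 (SE 0.21, adjusted p = 0.000481) and that of thymic over SI tuft -1.87 (SE 0.20, adjusted p = 8.12e-06). For thymic tuft over SI epithelium it was -0.47 (SE 0.19, adjusted p = 0.0638), and without thymic library 2 this comparison was called (log2 -0.64, adjusted p = 0.00889). Of the 50-base stretches of the Krt8 transcript 29.7% also occur in the transcripts of Krt8-ps or Gm36026, and how the authors' counting treated reads shared between genes is not given in the sources used here.

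Krt23, a type I keratin of gut epithelium and other glandular cells, was at 223, 312 and 289.8 CPM in SI tuft and at 41.4, 51.6 and 43.9 in SI epithelium. Thymic tuft held 72.6, 80.5, 62.6 and 65.0 CPM, between the intestinal groups with no overlap. SI tuft exceeded SI epithelium by 2.59 on the log2 scale (SE 0.19, adjusted p = 1.03e-06). Thymic tuft exceeded SI epithelium by 0.62 (SE 0.17, adjusted p = 0.00834), a call lost without SI epithelium library 1 (adjusted p = 0.0540).

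Krt19 and Krt20, type I keratins of the intestinal lining, fell in the order SI epithelium, SI tuft, thymic tuft. Krt19 was at 1269, 1471 and 1609 CPM in SI epithelium, 615, 433 and 431 in SI tuft and 159.8, 219.9, 175 and 137 in thymic tuft. Krt20, which marks differentiated cells of the villus, was at 1114, 1174 and 1291 CPM, then 522, 613 and 781, then 46.6, 33.8, 45.4 and 40.3. No libraries of different groups overlapped for either gene. SI tuft was lower than SI epithelium by log2 -1.56 (SE 0.21, adjusted p = 0.000176) for Krt19 and by -0.90 (SE 0.18, adjusted p = 0.00334) for Krt20. Thymic tuft was lower than SI tuft by log2 -1.51 (SE 0.19, adjusted p = 3.45e-05) for Krt19 and by -3.94 (SE 0.18, adjusted p = 1.34e-08) for Krt20. The share of the SI epithelium partner corresponds to 17.3% to 29.5% of the Krt20 counts of thymic libraries 3, 2 and 1, and to 5.12% to 9.58% of their Krt19 counts. With these shares subtracted Krt20 was at -4.16 in thymic over SI tuft. Thymic library 4, for which that share was not measured, held 40.3 CPM of Krt20.

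Krt7, a type II keratin of ducts and secretory epithelia, showed the opposite order of the tuft groups. It was at 186, 220.3 and 165 CPM in SI epithelium, 19.1, 17.8 and 21.1 in SI tuft and 87.5, 96.4, 99.3 and 78.9 in thymic tuft. It was the only simple keratin that was higher in thymic than in SI tuft (log2 2.23, SE 0.17, adjusted p = 5.17e-07), and it was 9.85-fold lower by mean CPM in SI tuft than in SI epithelium (log2 -3.30, SE 0.18, adjusted p = 1.02e-07). SI epithelium as sorted was rich in goblet cell genes, with Muc2 at 31325 ± 1430.1 CPM (SD, n = 3) and 766 ± 66.4 in SI tuft (SD, n = 3). All 6 listed goblet, 6 Paneth and 8 enteroendocrine genes were lower in SI tuft, while 3 of 10 enterocyte genes were higher and none lower, beside 10.9% higher and 11.4% lower among all genes tested. The 10 enterocyte genes summed to 34299 to 38239 CPM in SI tuft and 17896 to 19368 in SI epithelium. The part of such cells in the differences of Krt7, Krt19, Krt20 and the other simple keratins was not tested. From bulk libraries it cannot be told which sorted cells of the intestine carried the keratins.

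Krt222, an atypical keratin of the type I cluster with no class here, rose in both tuft groups. It was at 1.86, 1.70 and 1.35 CPM in SI epithelium, 38.0, 38.7 and 50.5 in SI tuft and 76.3, 118, 83.3 and 114 in thymic tuft. It was the only keratin higher in all 3 comparisons: by mean CPM, 25.9-fold in SI tuft over SI epithelium (log2 4.70, SE 0.27, adjusted p = 1.4e-07), 59.8-fold in thymic tuft over SI epithelium (log2 5.90, SE 0.28, adjusted p = 1.66e-08) and 2.31-fold in thymic over SI tuft (log2 1.21, SE 0.22, adjusted p = 0.000684).

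**Figure D2:**
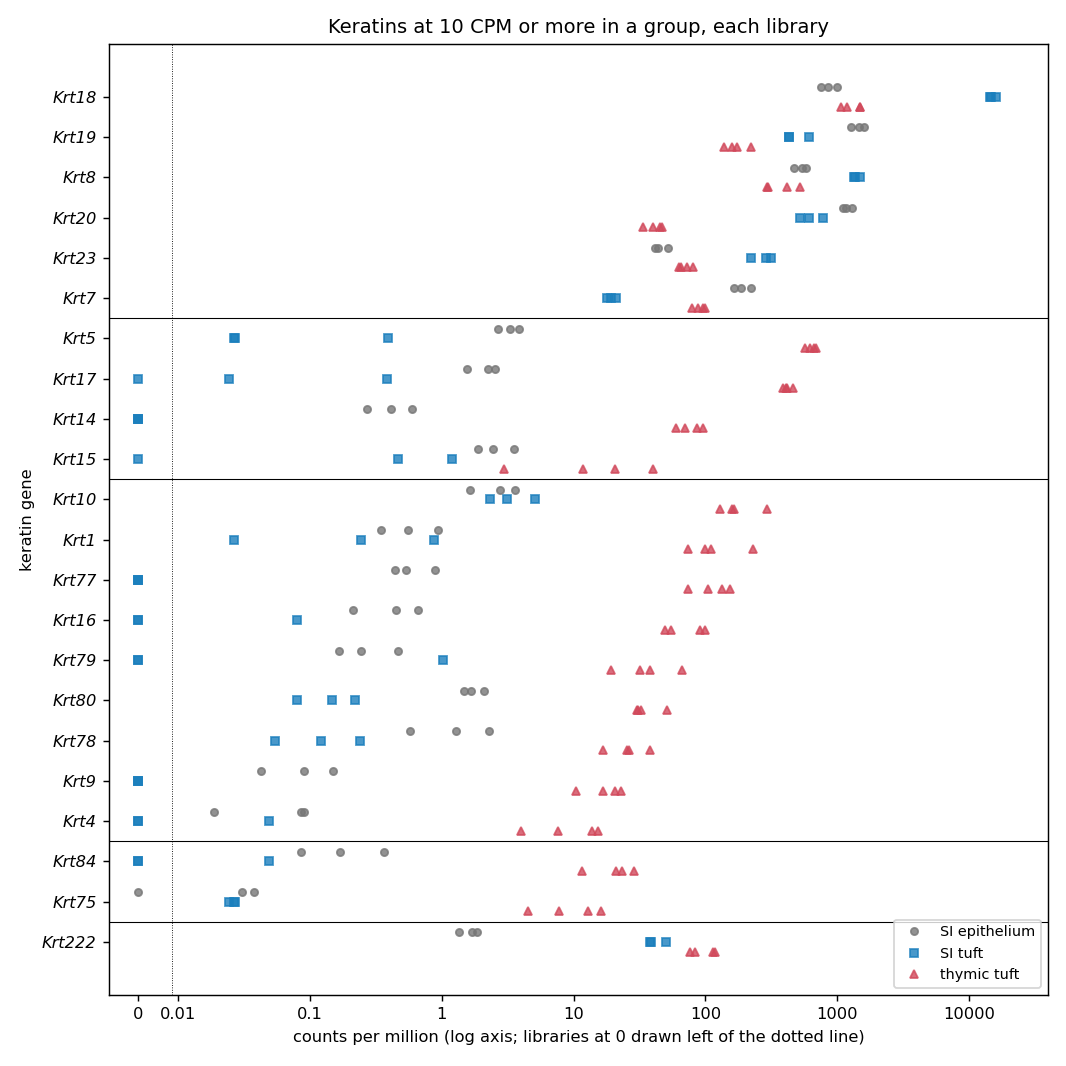
CPM (log axis) of the 22 keratins with a group mean of 10 CPM or more, 1 point per library, for SI epithelium (circles), SI tuft (squares) and thymic tuft (triangles). Simple keratins are present in all 10 libraries, whereas basal and suprabasal keratins lie at 5.05 CPM or less in intestinal libraries and at 2.95 CPM or more in thymic libraries.

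Set per kb of transcript, which allows genes to be compared, Krt18 dominated SI tuft libraries at 10462 ± 582 CPM per kb (SD, n = 3), with Krt8 next at 716 ± 42.6. In SI epithelium the order was Krt19 at 920.0 ± 108, Krt20 at 619 ± 46.8, Krt18 at 602 ± 82.5 and Krt8 at 269.9 ± 27.4 CPM per kb (SD, n = 3), and Krt20 and Krt18 did not differ beyond their spread. Thymic tuft libraries held Krt18 at 910.3 ± 150.4, Krt5 at 289.6 ± 24.9, Krt17 at 269 ± 19.8 and Krt8 at 196 ± 55.1 CPM per kb (SD, n = 4). Krt5 and Krt17 overlapped between libraries. Krt18 alone was 86.1% to 88.1% of keratin CPM per kb in SI tuft, 37.2% to 42.2% in thymic tuft and 23.4% to 25.0% in SI epithelium.

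Type I sums exceeded type II sums per kb by 14.5 to 17.3 times in SI tuft, 6.57 to 7.13 times in SI epithelium and 2.21 to 2.63 times in thymic tuft. Without Krt18 the ratio was 1.14 to 1.19 in SI tuft, 0.966 to 1.11 in thymic tuft and 4.77 to 5.10 in SI epithelium. The order of the groups changed once Krt18 was left out. The ratio of Krt18 to Krt8 per kb was 13.4 to 16.3 in SI tuft, 3.87 to 5.51 in thymic tuft and 2.17 to 2.33 in SI epithelium. The groups did not overlap in any of these 3 ratios, and the exact permutation p was 0.1 for 3 against 3 and 0.0571 for 4 against 3 libraries, the smallest each design allows. Over the 15 such tests of summed values and ratios the adjusted p were 0.107 and 0.0952 for these and 0.4 for the overlapping sums. These are levels of messenger RNA, and their ratio carries the uncertainty of the Krt8 counts given above.

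Thymic tuft libraries carried the keratins of stratified epithelium. Against SI tuft 26 of the 38 tested keratins were higher and 5 lower, beside 28.5% and 23.1% of all genes tested. In either direction 51.6% of all genes were called there, and libraries did not overlap for 30 keratins, beside 51.2% of all genes. Against SI epithelium 30 were higher and 5 lower, beside 28.6% and 22.3%. In either direction 50.9% of all genes were called, and libraries did not overlap for 30 keratins, beside 55.5% of all genes. The medians of the 38 were 7.43 and 6.56 on the log2 scale, beside 0.12 and 0.15 over all genes. The 38 include the 13 that entered through the thymic libraries, so these counts and medians are a result of the filter as well. All 4 basal keratins, 12 of 13 tested suprabasal and cornifying keratins and both unclassified ones were higher in thymic tuft in both comparisons. Of the 12 suprabasal calls 5, and of the 2 unclassified calls 1 (Krt90), were of genes that entered through the thymic libraries alone. The same held for 6 of the 7 hair, nail and root sheath keratins called higher against SI tuft. Against SI epithelium it held for 7 of the 10. The suprabasal Krt16 and, in the hair class, Krt84 and Krt42 also passed only with thymic libraries. The hair, nail and root sheath counts therefore support nothing.

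Krt5, the type II keratin of basal cells, was at 667, 565, 689 and 624 CPM in thymic tuft. It was at 3.86, 3.27 and 2.65 CPM in SI epithelium and at 0.389, 0.0272 and 0.0264 in SI tuft, so the 3 groups did not overlap. Thymic tuft exceeded SI tuft by 11.99 on the log2 scale (SE 0.59, adjusted p = 2.21e-08) and SI epithelium by 7.61 (SE 0.47, adjusted p = 1.09e-07). With the partner share subtracted the latter was 13.19 (SE 0.92, adjusted p = 4.36e-07), which left 11 of 534 counts in SI epithelium. All 11 were in SI epithelium 2. In libraries 1 and 3 the predicted share (212.0 and 212.7) exceeded the counts (205 and 175), and the difference was set to 0. The SI tuft group rests on 18 counts in all.

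Krt17, a type I keratin of basal-like, appendage and stressed epithelium, was at 406, 458, 385 and 418 CPM in thymic tuft, at 2.24, 2.55 and 1.54 in SI epithelium and at 0.0243, 0.381 and 0 in SI tuft. It exceeded SI tuft by 11.61 on the log2 scale (SE 0.67, adjusted p = 6.53e-08). Krt14, the partner of Krt5, was at 69.8, 96.4, 60.2 and 86.9 CPM in thymic tuft and had no count in any SI tuft library. It was at least 2962-fold higher in thymic than in SI tuft, taking 3 counts over the SI tuft group as the limit and summed counts over summed library sizes, the scale of all such limits. Of the 50-base stretches of Krt14 14.4% are shared with Krt16 or Krt17. Of those of Krt16 37.6% are shared with Gm11597, Krt14 or Krt17. Counts could therefore be split among these genes.

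Krt15, a type I keratin of basal and stem cells, was the least even of the basal set. It was at 11.8, 40.3, 20.4 and 2.95 CPM in thymic tuft, 3.54, 2.46 and 1.89 in SI epithelium and 0.462, 1.20 and 0 in SI tuft. Thymic library 4 fell within the range of SI epithelium. The difference was 5.09 over SI tuft (SE 1.18, adjusted p = 0.00346) and 2.84 over SI epithelium (SE 1.03, adjusted p = 0.037), and the latter call was lost without SI epithelium library 1, 2 or 3, SI tuft library 2, or thymic library 2 or 3 (adjusted p up to 0.125). Krt15 lies 4.88 kb from Krt19 on chromosome 11, and the neighbours ran in opposite directions between the thymic and SI tuft libraries.

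Among suprabasal keratins, Krt10 and its type II partner Krt1 mark cells that have left the basal layer. Krt10 was at 160.0, 129, 291 and 165 CPM in thymic tuft, 3.58, 2.76 and 1.65 in SI epithelium and 5.05, 3.10 and 2.32 in SI tuft. The intestinal groups overlapped, and thymic tuft exceeded SI tuft by 5.73 on the log2 scale (SE 0.43, adjusted p = 5.33e-07). A stretch of 146 bases of Krt10 exons overlaps the antisense gene Gm11940, and the library kits mark no strand. Krt1 was at 74.1, 99.7, 111 and 228 CPM in thymic tuft, and every intestinal library was below 1 CPM. It exceeded SI tuft by 8.35 (SE 0.82, adjusted p = 4.8e-06).

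Krt77, a type II keratin of sweat ducts and upper epidermis, was at 105, 74.1, 154 and 134 CPM in thymic tuft. It had no count in SI tuft and lies 7.94 kb from Krt1. It was at least 4593-fold higher in thymic than in SI tuft. Krt16, a type I keratin of palm, sole and wounded skin, was at 49.4, 90.3, 99.2 and 54.4 CPM in thymic tuft and had 3 counts in SI tuft, giving a ratio of 2869.7 (95% counting interval 982 to 13915). Intervals and limits of this kind cover counting error only, since amplified reads without molecular tags are not independent molecules.

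The other suprabasal keratins above 10 CPM were Krt79, Krt80, Krt78, Krt9 and Krt4. Krt79, a type II keratin of sebaceous and hair follicle ducts, was at 38.0, 32.1, 19.1 and 66.7 CPM in thymic tuft. SI tuft library 2 held 1.02 CPM of it and the other SI tuft libraries none, and SI epithelium held 0.245, 0.467 and 0.167. Krt79 was not called between the intestinal groups (adjusted p = 0.903), but it was called lower in SI tuft without SI tuft library 2 (adjusted p = 0.0134). Krt80, which appears late in epithelial differentiation, was at 51.5, 32.3, 31.0 and 30.0 CPM in thymic tuft, at 1.47, 2.08 and 1.67 in SI epithelium and at 0.146, 0.218 and 0.0792 in SI tuft. Krt78 was at 26.4, 37.7, 25.3 and 16.7 CPM in thymic tuft. It was at 2.30, 1.27 and 0.575 CPM in SI epithelium and at 0.121, 0.0544 and 0.238 in SI tuft, with no overlap between groups. Krt9, the type I keratin of palm and sole, was at 22.9, 10.5, 20.5 and 16.7 CPM in thymic tuft and without a count in SI tuft. Krt4, a type II keratin of the oesophagus and other moist stratified surfaces, was at 15.2, 4.00, 7.64 and 13.8 CPM in thymic tuft, while each intestinal library was below 0.1 CPM. Its usual partner Krt13 was at 4.69 CPM in thymic library 1 and at 0.494 or less in the others. The untested Krt13 and the uncalled Krt12, whose sequence is 42.0% shared with the antisense gene A830036E02Rik, are the only members of this class that were not higher in thymic tuft by the test. Krt24, Krt76 and Krt2 were called higher in thymic tuft below 10 CPM.

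**Figure D3:**
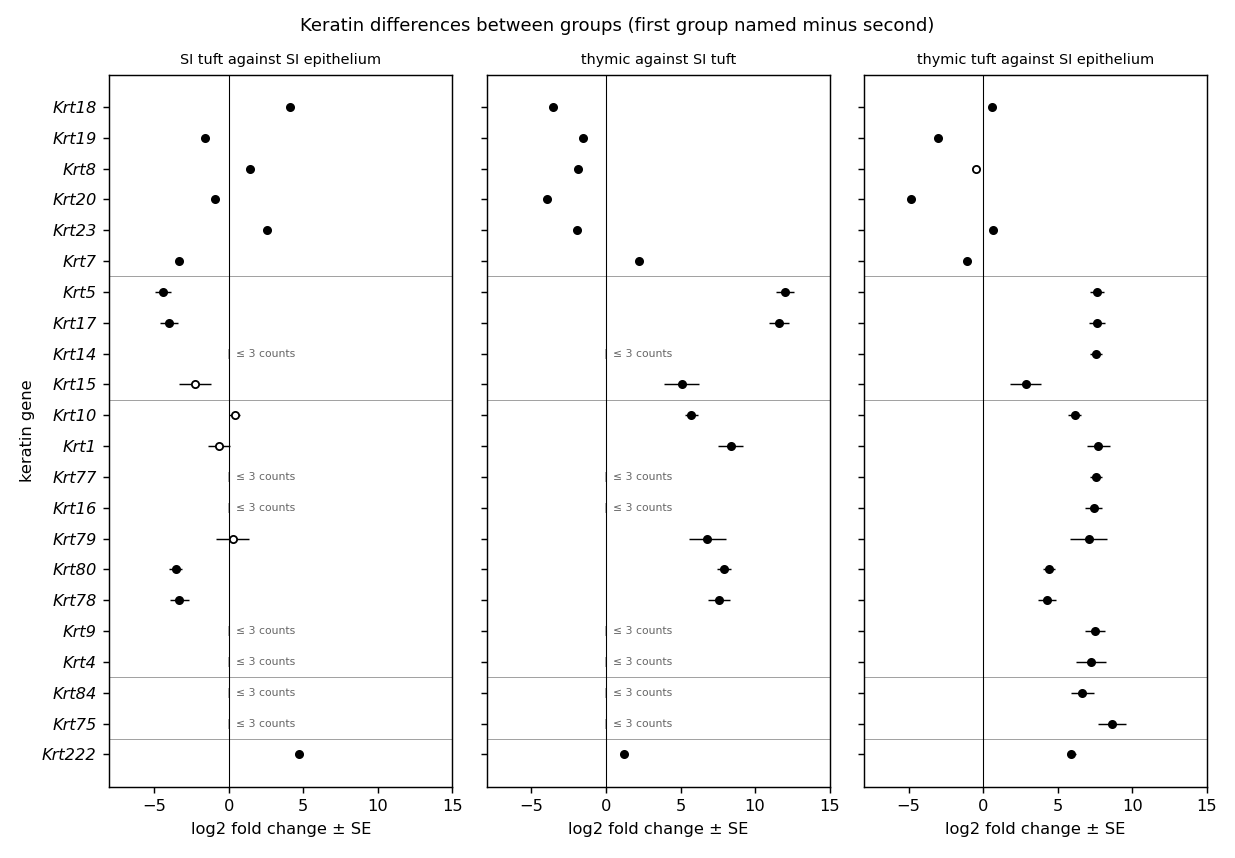
Log2 fold change with SE from edgeR for the 22 named keratins in the 3 comparisons; filled points have an adjusted p below 0.05 and open points do not, and genes with 3 or fewer counts in a group are marked without a value. Krt18 lies at 4.12 in the left panel, -3.52 in the middle and 0.60 on the right, and Krt5 at -4.38, 11.99 and 7.61.

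The counts of basal and suprabasal keratins in SI epithelium matched the share of the partner thymic library in many cases. Counts and predictions were summed over the 3 pairs. Of 25 keratins for which that share predicts at least 5 counts, 12 had a count whose 95% Poisson interval held the prediction, 13 were above it and 0 below. In SI epithelium 3 alone Krt5 had 175 counts against 212.7 predicted and Krt17 had 102 against 129.7. Krt5 in SI epithelium amounted to 0.452% of its partner counts (interval 0.414% to 0.492%), Krt17 to 0.451%, Krt14 to 0.503%, Krt16 to 0.477% and Krt77 to 0.481%. Krt15 (10.1% of partner counts), Krt78 (4.11%), Krt80 (4.09%), Krt10 (1.17%), Krt79 (0.862%) and Krt84 (0.836%) were above the share, as were all 6 simple keratins and Krt222 (1.61%). For Krt84 the excess lay mainly in SI epithelium 3, with 24 counts against 9.1 predicted. It had 9 against 6.5 in library 1 and 4 against 5.9 in library 2. Krt79 was not above the share in SI epithelium 3, with 11 counts against 12.1 predicted.

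With the share subtracted, the number of keratins lower in SI tuft than in SI epithelium was 7, not 15. The calls lost were Krt5, Krt17, Krt14, Krt16, Krt77, Krt9, Krt82 and Krt84. For Krt5 the difference of SI tuft over SI epithelium went from -4.38 (adjusted p = 7.09e-05) to 1.13 (adjusted p = 0.545), and for Krt17 from -3.98 (adjusted p = 0.000523) to 2.00 (adjusted p = 0.265). Krt78 and Krt80 stayed lower in SI tuft, at -3.14 (adjusted p = 0.00631) and -3.38 (adjusted p = 0.000195). Thymic against SI tuft kept all 31 of its keratin calls under subtraction. Thymic tuft against SI epithelium kept 34 of 35, without Krt42, and its differences grew where few counts were left in SI epithelium. Krt17 went from 7.63 to 13.68 with 5 counts left, Krt14 from 7.53 to 10.80 with 7, Krt16 from 7.39 to 11.18 with 5, Krt77 from 7.56 to 11.59 with 6 and Krt1 from 7.71 to 10.29 with 17. Krt79 went from 7.07 to 8.196, Krt10 from 6.13 to 6.92 and Krt4 from 7.23 to 8.59 with 4 counts left. Such values rest on the few counts that remain and on the estimate of the share. Where the share exceeded the counts of a library, the difference was set to 0. Counts left for Krt5 and Krt77 were all in SI epithelium 2, and those for Krt16 all in SI epithelium 1.

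**Figure D4:**
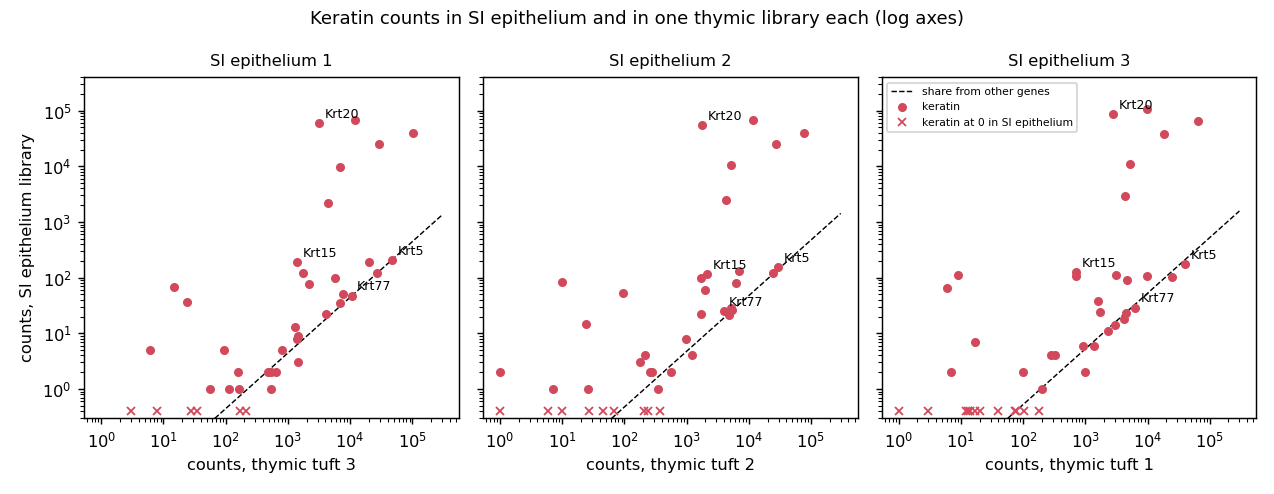
Counts of each keratin in the 3 SI epithelium libraries (vertical, log axis) against the partner thymic library (horizontal, log axis); the dashed line is the share measured on genes other than keratins and crosses mark keratins at 0 in SI epithelium. Krt5 and Krt77 lie on or near the line in the 3 panels and Krt15 and Krt20 lie above it.

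Hair, nail and root sheath keratins were low and uneven in the thymus. Krt84, a type II keratin of tongue papillae and nail, was at 28.5, 23.4, 20.98 and 11.7 CPM in thymic tuft, and Krt75, a type II keratin of the companion layer of the follicle, at 16.1, 4.54, 7.69 and 12.9. Every intestinal library was below 0.4 CPM for both, and thymic tuft exceeded SI epithelium by 6.64 (SE 0.75, adjusted p = 1.61e-05) for Krt84 and 8.63 (SE 0.95, adjusted p = 1.18e-05) for Krt75. With the partner share subtracted Krt84 was at 7.75 (adjusted p = 6.92e-05), while Krt75 had 0 of its 4 counts left in SI epithelium, so no value is given for it. Both genes passed the filter only with thymic libraries, so these calls are a result of the filter as well.

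Within the thymus, other members of the class were carried mainly by 1 library each. Krt83 was at 21.02 CPM in library 3, 1.61 and 1.28 in libraries 1 and 2 and 0 in library 4. Krt87 was at 11.6 CPM in library 1 and at 0.217 or less in the others. Krt27 was at 6.46 CPM in library 2 and at 0.197 or less in the others. In the intestine Krt27 had 145 counts over SI tuft and 2 over SI epithelium, and Krt87 had 24 and 263. Neither was called between these groups in the main fit, but both were when only the 2 groups were fitted. Krt72 was at 4.79 CPM and Krt81 at 3.32 CPM in library 2, and each was at 0.809 or less elsewhere in the thymus. Krt83, Krt81, Krt86 and Krt87 share sequence with each other, so which of them the reads came from is uncertain. Over the 11 class members with a thymic mean of at least 1 CPM the coefficient of variation between the 4 libraries had a median of 94.0%, beside 15.3% for the 6 simple, 14.7% for the 4 basal and 45.0% for the 12 suprabasal members. In 6 of those 11 more than 50% of the summed CPM came from 1 library, beside 0 of 6 simple, 1 of 4 basal and 3 of 12 suprabasal members. Low levels carry more counting error, and no test of this spread was made.

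**Figure D5:**
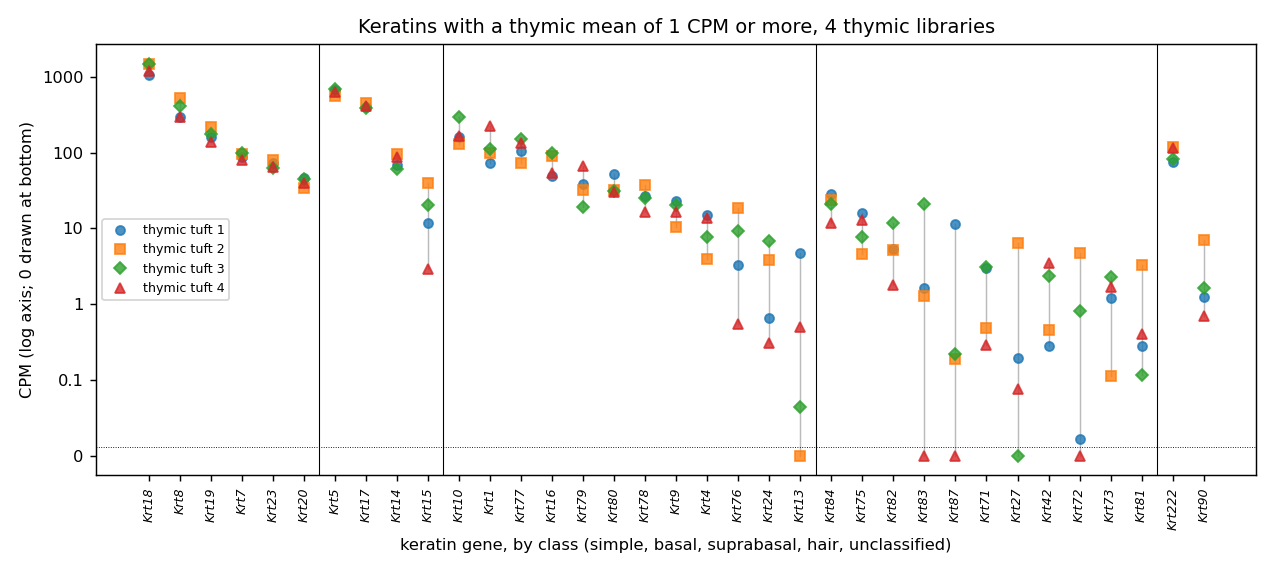
CPM (log axis, 0 at the bottom) in the 4 thymic tuft libraries of the 35 keratins with a thymic mean of at least 1 CPM, ordered by class and mean. Simple keratins and Krt5, Krt17 and Krt14 lie close together, while Krt13, Krt83, Krt87, Krt27 and Krt72 reach from 0 or nearly 0 to 4.69 CPM or more.

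A few hair keratins were found in SI epithelium and hardly elsewhere. Krt35, a type I hair cortex keratin, was at 1.62, 0.467 and 0.984 CPM in SI epithelium, without a count in SI tuft and with 6 counts in thymic tuft. It was at least 40.2-fold lower in SI tuft than in SI epithelium. Krt39 was at 0.659, 0.276 and 0.591 CPM in SI epithelium, with 1 count in SI tuft and none in thymic tuft. Both calls for SI tuft against SI epithelium (adjusted p = 0.0233 and 0.0347) were lost under several settings, among them leaving out any intestinal library. Their counts exceed what the thymic partner share predicts.

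The 11 keratins that were not tested were Krt13, Krt72, Krt88, Krt86, Krt32, Krt36, Krt31, Krt34, Krt26, Krt28 and Krt40, 10 of them in the hair, nail and root sheath class. Among these Krt31 had 26 counts in SI epithelium and none in the other groups, and Krt88 had 170 counts in thymic tuft, nearly all in library 3 at 2.44 CPM. As neighbours outside the member list, Krt6a was at 30.7, 23.7, 17.1 and 16.8 CPM and Krt6b at 14.6, 11.7, 2.17 and 6.90 CPM in thymic tuft, and both had no count in SI tuft.

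Desmosomes anchor keratin filaments at cell borders. Of 15 desmosome genes 12 were higher and 3 lower in thymic than in SI tuft, beside 28.5% and 23.1% of all genes tested, with a median log2 difference of 1.93 beside 0.12. In SI tuft against SI epithelium 1 was higher and 4 lower, beside 10.9% and 11.4%. Dsp (desmoplakin, which binds the filaments) was at 1632 ± 69.7 CPM in thymic tuft (SD, n = 4), 563 ± 71.2 in SI tuft and 612 ± 31.3 in SI epithelium (SD, n = 3 each). Jup (plakoglobin) and Dsg2, a desmosomal cadherin of simple epithelia, rose less, from 386 ± 42.8 to 580.1 ± 71.0 CPM and from 305 ± 15.6 to 522 ± 85.4 CPM (SD, n = 3 and 4). Dsc2, Pkp3 and Pkp2 were the 3 lower members, with Pkp3 at 37.5 ± 2.32 CPM in thymic tuft and 94.3 ± 10.9 in SI tuft. Dsg1a, Dsg1b, Dsg1c, Dsc1 and Dsc3, cadherins of stratified epithelium, had no count in SI tuft. Pkp1 was the only member higher in SI tuft than in SI epithelium (log2 0.48, SE 0.15, adjusted p = 0.0362).

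Hemidesmosome and plakin genes, which link keratin to the basement membrane or to other filaments, were called about as often as other genes. Of 9 matched genes 4 were higher and 1 lower in thymic than in SI tuft, beside 51.6% of all genes called (28.5% higher and 23.1% lower), with a median of 0.36 beside 0.12. Macf1, a plakin that links filament systems, was at 416 ± 32.5 CPM in thymic (SD, n = 4) and 137 ± 3.49 in SI tuft (SD, n = 3), and Ppl (periplakin) at 183 ± 38.1 and 10.1 ± 4.89. Itgb4, the integrin of hemidesmosomes, was the lower member, at 97.1 ± 36.2 in thymic and 368 ± 23.7 CPM in SI tuft. Of 12 tested genes that bind or modify keratins 7 were higher and 3 lower in thymic than in SI tuft, beside 28.5% and 23.1% of all genes tested, with a median of 0.66. Sfn (14-3-3 sigma) was at 122 ± 24.3 and 54.8 ± 11.2 CPM, and Hspb1, a small heat shock protein, at 64.3 ± 23.8 and 1.28 ± 0.284 CPM. Of 14 tested other intermediate filament genes 10 were higher and 2 lower in that comparison, beside 28.5% and 23.1% of all genes tested, and the lower ones were the lamins Lmnb1 and Lmnb2.

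Of 20 transcription factors tied to keratin or barrier genes 14 were higher and 2 lower in thymic than in SI tuft, beside 28.5% and 23.1% of all genes tested, with a median of 2.52 beside 0.12. Ehf was at 703 ± 42.1 CPM in thymic (SD, n = 4), 400.3 ± 42.0 in SI tuft and 145 ± 7.28 in SI epithelium (SD, n = 3 each), a rise called in every comparison. Trp63, the p63 gene of basal epithelium, was at 113, 102, 134 and 124 CPM in thymic tuft and at 0.743 or less in each intestinal library. Foxn1, the factor of thymic epithelium and of hair, was at 169 ± 30.0 CPM in thymic tuft (SD, n = 4). Klf5 and Elf3, factors of intestinal epithelium, were the 2 lower ones, with Klf5 at 196 ± 28.1 in thymic and 549.8 ± 37.1 CPM in SI tuft.

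Markers of other thymic epithelium moved with the stratified keratins. Call counts of the marker lists below are for thymic against SI tuft, beside 28.5% higher and 23.1% lower among all genes tested. The 10 listed keratinocyte and corneocyte genes were all higher in thymic tuft, with sums of 1535 to 2086 CPM, 44.5 to 50.5 in SI epithelium and 10.6 to 12.4 in SI tuft, and 0 of the 10 were at 0 in the thymus. The most abundant were Sprr1a at 816 ± 258 CPM and Spink5 at 451 ± 64.7 CPM (SD, n = 4). The 7 medullary epithelium genes summed to 707 to 977 CPM in thymic tuft, 26.6 to 48.9 in SI tuft and 38.8 to 53.6 in SI epithelium, with Fezf2 at 285 ± 30.9 and Aire at 225 ± 45.2 CPM in thymic tuft (SD, n = 4). The 7 cortical epithelium genes summed to 666 to 890.3 CPM in thymic tuft and 439 to 488 in SI tuft (4 of 7 higher, 1 lower). The 7 myeloid and dendritic genes summed to 197 to 267 CPM and 10.4 to 35.02 CPM (4 of 6 tested higher, 1 lower), with Lyz2 at 183 ± 19.0 CPM in thymic tuft (SD, n = 4), and the 5 B cell genes to 25.5 to 40.2 and 1.74 to 4.07 CPM (2 of 4 tested higher). The 8 fibroblast and endothelial genes summed to 26.8 to 155 CPM in thymic tuft and 1.51 to 2.75 in SI tuft (6 of 7 tested higher), with Cdh5, Col1a2, Col3a1 and Pdgfra at 0 in SI tuft. The 9 T cell genes summed to 9.20 to 30.3 and 22.7 to 35.02 CPM (0 of 8 tested higher, 1 lower), and Ptcra was at 0 in thymic tuft. The part of such cells in the keratin differences was not tested, and from bulk libraries it cannot be told whether tuft cells or other sorted cells carried the keratins.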

How the data were processed

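Messenger RNA of sorted cells was sequenced in 10 libraries, each of 1 mouse. The authors deposited raw counts per gene. Per the submitters' processing notes, STAR, GRCm38 and DESeq2 were named without versions, and the counter and annotation release are not given in the sources used here. The NuGEN Ovation V2 and Nextera XT kits mark no strand, so overlapping genes are uncertain.

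Counts, 38659882 to 73574745 per library, were used as deposited, and 884 identifiers without a GENCODE M21 entry kept their counts but no symbol. Genes passed edgeR's filterByExpr (minimum count 10, total 15), which left 19281. Library sizes were scaled by TMM, and 1 quasi-likelihood model with 3 group means took in the 10 libraries (R 4.3.3, edgeR 4.0.16). Replicates within a group were treated as separate mice. The fit was tested on simulated counts.

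The members and lists were chosen with earlier results of these data known, as were the partner libraries, so no list is independent support. Keratins with a group mean of at least 10 CPM were named, lower ones where called, and the rest counted. For each list up to 3 called members in each direction with the highest means could be named. Dsc2, Pkp2, Dsg1a, Dsg1b, Dsg1c, Dsc1, Dsc3, Krt13, Krt31, Krt72 and Krt88 were named after their values were seen. CPM per kb used the longest protein-coding transcript. Alternatives were DESeq2 size factors, upper quartile scaling, other filters, the DESeq2 1.42.0 Wald test, 2-group fits, a replicate block, leaving out each library and subtracting the partner share, which was estimated on genes other than keratins.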

Additional observations from a re-analysis of the deposited data

Results flagged for a closer look

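In 8 of the 35 keratins with a thymic mean of at least 1 CPM, 1 thymic tuft library stood apart from the other 3. The gap exceeded the 95% critical value of Dixon's ratio for 4 samples, taken on CPM without a log scale. Chance passes that level in about 1 of 20 groups only where values are normally distributed, which was not tested. The 8 of 35 therefore cannot be set against that rate. Each of the 8 keratins was high in the library named. Krt80 was at 51.5 CPM and Krt13 at 4.69 CPM in library 1, and Krt87 at 11.6 CPM in the same library. In library 2 Krt27 was at 6.46, Krt81 at 3.32, Krt90 at 7.03 and Krt72 at 4.79 CPM. In library 3 Krt83 was at 21.02 CPM. Krt80 differs from the rest in that its other 3 libraries also held 30.0 to 32.3 CPM, whereas the other 7 genes were at 1.63 CPM or less in the remaining thymic libraries. The libraries were made from 1350 to 1900 cells each.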

How the results depend on the processing

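The labels name no mouse shared between groups, so whether same-numbered libraries came from 1 mouse is not known. Deviations of same-numbered libraries correlated between -0.063 and 0.071 over genes. The highest value was for SI epithelium 2 with thymic library 2, which also share counts. Such correlations over few libraries cannot decide whether mice were shared. With the replicate number as a block, 4 keratins were higher and 11 lower in SI tuft than in SI epithelium, 26 and 5 in thymic than in SI tuft, and 27 and 5 in thymic tuft than in SI epithelium, and Krt79 turned to -0.43 in SI tuft over SI epithelium without being called. Subtracting the partner share left 7 keratins lower in SI tuft than in SI epithelium and turned Krt5 to 1.13, Krt17 to 2.00 and Krt1 to 1.86, none of them called. Requiring 10 CPM in 3 libraries tested fewer genes and left 17 keratins higher in thymic than in SI tuft, and 18 higher and 3 lower in thymic tuft than in SI epithelium.

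Leaving out each library gave 4 to 5 higher and 11 to 15 lower keratins for SI tuft against SI epithelium, 23 to 28 and 5 to 6 for thymic against SI tuft, and 23 to 29 and 4 to 6 for thymic tuft against SI epithelium. In SI tuft over SI epithelium it moved Krt75 between -0.35 (without SI epithelium 2) and 0.56, and Krt79 between -6.95 (without SI tuft 2) and 0.84, with -0.03 without SI epithelium 3. The DESeq2 Wald test gave 4 and 14, 27 and 5, and 29 and 4 in the same order. DESeq2 size factors and upper quartile scaling kept every keratin call, while DESeq2 size factors shifted the median of all genes by 0.24 and 0.23 in the 2 thymic comparisons and upper quartile scaling by 0.12 in thymic against SI tuft. Over all genes, SI tuft against SI epithelium gave 2101 higher and 2199 lower, 3475 and 3513 when only these 2 groups were fitted, and 1426 or 1432 lower without SI epithelium 1 or 2. The 10 CPM filter took the genes higher in thymic tuft from 5492 to 3289 against SI tuft and from 5514 to 3536 against SI epithelium. Keratins with 3 counts or fewer over a group give a limit or a counting interval only.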
